A study of Mus musculus with 6 samples.

Results

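The genes described here are those of the translation initiation factors (eIF) and elongation factors (eEF), taken as every row of the deposited gene count table whose symbol begins with Eif or Eef and a digit. There are 66 such rows among 23358. RNA was sequenced from MC3T3-E1, an established pre-osteoblast line that derives from C57BL/6 mouse calvaria. Confluent cultures in αMEM with serum had received NU7441 at 1 µM, or DMSO alone as its solvent, for 16 h. NU7441 inhibits DNA-PK, a kinase that acts in the joining of broken DNA ends. There were 3 samples per group. All came from this 1 line. The series' design text speaks of 3 independent experiments whose triplicates were pooled, and the labels do not say whether a sample's number stands for an experiment, so p-values measure only the spread between these samples, which may be technical. The comparison asks which transcripts differ between NU7441 and DMSO in pre-osteoblasts. With 1 compound at 1 dose, effects through DNA-PK and through any other target cannot be told apart.

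Initiation factors bring the small ribosomal subunit, the initiator tRNA and the mRNA together. eIF2 carries the initiator tRNA, eIF2B recharges eIF2 with GTP, eIF3 is the large scaffold on the small subunit, and eIF4F (the cap-binding protein eIF4E, the helicase eIF4A and the scaffold eIF4G) binds the capped end of the mRNA. eEF1A then delivers each aminoacyl-tRNA, the eEF1B subunits recharge eEF1A, and eEF2 moves the ribosome along. A subset of these mRNAs belongs to the terminal oligopyrimidine (TOP) mRNAs, which start with a run of C and T bases. Their translation depends on mTORC1, LARP1 and the eIF4E-binding proteins. The TOP list used here holds the core elongation factors, Eif3e, Eif3f and Eif4b, and may leave out other TOP mRNAs of the group. Ribosomal protein mRNAs are the largest class of TOP mRNAs.

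The sequences at the annotated starts are shown because a run of C and T there names the TOP group, and the windows bear it unevenly: Eif3f has a long run next to the start, Eef2 and Eif4b have runs further in, and Eef1b2 has only a short one. Each is 30 bases of the transcribed strand, 5 before and 25 from the RefSeq start on (build GRCm38.p6), with the longest run of C and T in capitals. The first 5 are TOP mRNAs whose level was higher in NU7441.
Eif3f: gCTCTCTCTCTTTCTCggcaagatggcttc
Eef1a1: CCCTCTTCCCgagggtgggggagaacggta
Eef2: cgggcgttgacgtcagcggTCTCTTCCgcc
Eif4b: tcggacgccgcgccaCCCCCTCgcgctgct
Eef1b2: gTTCCgccggaagtagccgaggccttgcgt
The next 4 are eIF3, eIF4F and eIF2 subunits whose level was lower.
Eif3b: gcggtgaCTTCTgggagtcggaagcagggc
Eif4a1: gTCacgtcgagttgcagagcgccggcaggc
Eif4e: gcagcggaggcggagggagctggTCCTTaa
Eif2s1: ggcgaagcgcacgctgaggagCTTCggcgt
The last 2 are the X- and Y-linked copies of 1 eIF2 subunit, outside the TOP list, which went in opposite directions and whose runs are longer than those of most TOP members shown.
Eif2s3x: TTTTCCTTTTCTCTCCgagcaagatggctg
Eif2s3y: cagccaCTTCCTTCTTTCgtgagcaagatg

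These windows lie at chr7:108934410-108934439 (plus strand) for Eif3f, chr9:78481700-78481729 (minus) for Eef1a1, chr10:81176626-81176655 (plus) for Eef2, chr15:102073768-102073797 (plus) for Eif4b and chr1:63176826-63176855 (plus) for Eef1b2. The others lie at chr5:140419300-140419329 (plus) for Eif3b, chr11:69672399-69672428 (minus) for Eif4a1, chr3:138526186-138526215 (plus) for Eif4e, chr12:78862067-78862096 (plus) for Eif2s1, chrX:94212627-94212656 (minus) for Eif2s3x and chrY:1010590-1010619 (plus) for Eif2s3y. The RefSeq table held 63 start windows for 48 of the 66 genes. Annotated starts can differ from the start used in these cells, so a window without a run says only that the letters are not in it.

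A C at the annotated start followed by at least 4 bases that are C or T, read on the transcribed strand, was found in Eif3f and Eif2s3x only among 47 tested genes of the group with a window. It was found in 3.04% of 9650 tested genes with a window and in 13 of 59 ribosomal protein genes. A C followed by 6 or more C or T anywhere in the 30 bases was found in 4 of the 5 tested TOP members with a window (Eef1a1, Eef2, Eif3f, Eif4b). It was found in 6 of 12 genes of the group that rose, 3 of 16 that fell and 15.1% of tested genes. The TOP members Eef1d and Eef1g, which did not pass, and Eif3e, which rose, had no window. In Eef1a1 the run begins 5 bases before the annotated start. The E-box CACGTG, which reads the same on both strands, was in the 300-base promoter window of 12 of the 47 genes against 11.5% of tested genes. Among those 12, Eif4e (at its second annotated start), Eif4a1, Eif4g1, Eif5a and Eif3a fell. Eef2, Eif3f and Eif3k rose.

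Depth lay between 47312968 and 71292628 gene counts per sample, with the lowest and the highest total both in DMSO. Of 7 tested osteoblast markers 2 rose and 2 fell, while Bglap had too few counts to be tested. Among all genes tested 14.1% were higher and 16.6% lower, for comparison with this and the marker lists below. Spp1 (log2 fold change 0.25) and Col1a2 (0.05, with overlapping groups) were higher. Ibsp (-0.89) and Alpl (-0.29) were lower, and Runx2, Sp7 and Col1a1 did not pass. The summed level of the osteoblast list was 41810 to 44220 CPM (counts scaled to equal depth) in DMSO and 43140 to 43530 CPM in NU7441. Ptprc (blood cells), Kdr (endothelium), Epcam, Krt8 and Krt18 (epithelium), Myod1 and Myf5 (muscle) and Acan (cartilage) had 0 counts in all samples. Other markers of blood cells, endothelium, epithelium and muscle were at low levels. Their DMSO means were 1.72 CPM for Cdh1, 1.30 for Cd68, 1.00 for Csf1r, 0.477 for Acta1 and 0.272 for Pecam1. Not all markers outside the osteoblast list were low. The chondrocyte markers Sox9 and Col2a1 had DMSO means of 72.2 and 8.49 CPM, and the adipocyte marker Cebpa had 20.9 CPM. Markers of mitosis moved with the treatment: 10 of 10 G2/M markers fell in NU7441, and their summed level went from a range of 869 to 980 CPM in DMSO to one of 300.1 to 372. Of 3 tested chondrocyte markers 2 rose, with a summed level of 80.95 to 82.98 CPM in DMSO and 86.2 to 91.24 CPM in NU7441. No tested marker of adipocytes, muscle, macrophages, endothelium or epithelium passed. The part of these markers in the results below was not tested. In bulk RNA, fewer cells of a type and less RNA per cell cannot be told apart.

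Of the 66 genes, 63 passed the filter on low counts, and the lowest count among these in any sample was 208, for Eif4ebp3. The other 3 were Eif4e1b, a form of the cap-binding protein known from oocytes, and Eif3j, both with 0 counts in all samples, and Eef1a2, the eEF1A form of muscle and neurons, with 0 counts in every DMSO sample and 2, 0 and 2 in NU7441. If counts were independent, a 0 would allow up to 3 counts, or between 0.0421 and 0.0634 CPM at these depths. Every deposited count is even, so a read pair appears to be counted as 2 and the limit is higher. The Eif3j row shares all of its 25007 bases with another row, Gm9781, and the sources used here do not give how reads that fall in both were counted. Its 0 therefore does not speak for the eIF3j subunit. The 4 rows Eif2c1, Eif2c2, Eif2c3 and Eif2c4 carry older names of the Argonaute genes Ago1 to Ago4, which act in RNA silencing and are not initiation factors.

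Levels per gene length spanned more than 3 orders of magnitude. In the deposited RPKM (counts per kilobase of the coding length given in the file and depth), Eef1a1 stood at 2833 ± 87.1 (mean ± SD, n = 3) in DMSO, Eef2 at 939 ± 18.1, Eef1g at 657 ± 18.8 and Eef1b2 at 337 ± 3.13. The elongation factors thus headed the list, apart from Eef1d at 54.3 ± 0.987 RPKM. The most abundant genes with an initiation factor name were Eif4a1 at 230.1 ± 3.26, Eif1 at 183.6 ± 0.817, Eif5a at 173.6 ± 6.35, Eif4b at 146.7 ± 2.56 and Eif3h at 142.1 ± 2.49 RPKM. The eIF2B subunits lay between Eif2b3 at 2.49 ± 0.0658 and Eif2b5 at 21.3 ± 0.514 RPKM.

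**Figure D1:**
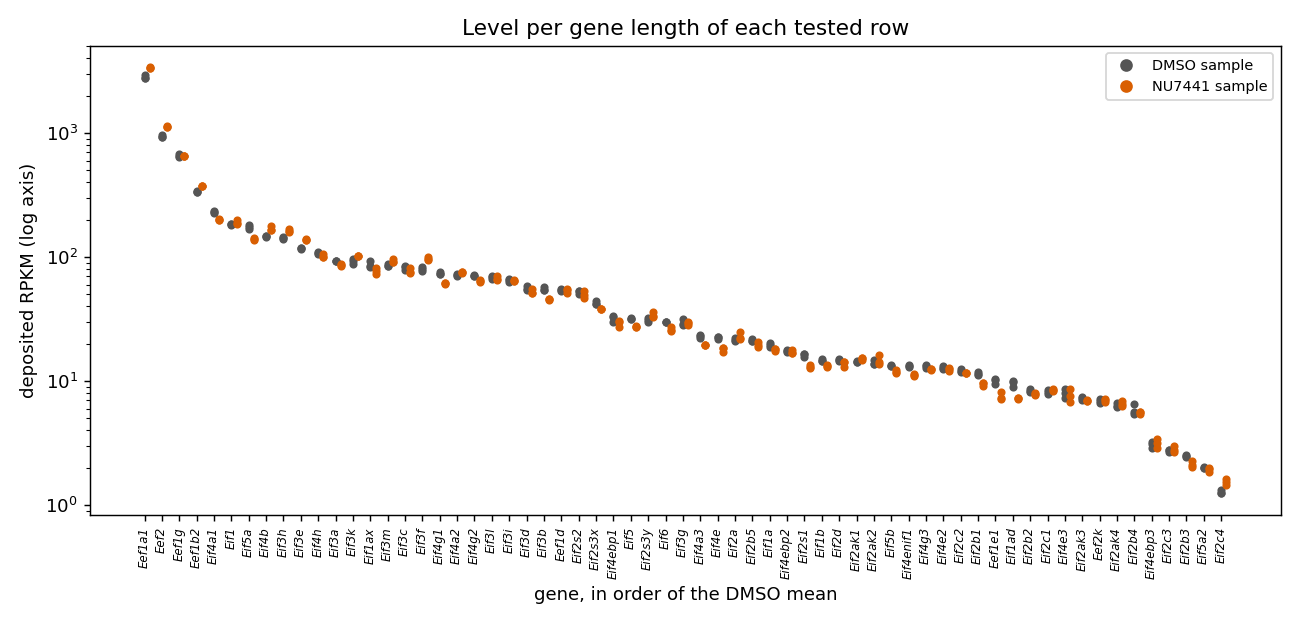
Deposited RPKM (log axis) of the 63 tested rows, ordered by the DMSO mean, with 1 point per sample (grey DMSO, orange NU7441, 3 samples each). Eef1a1, Eef2, Eef1g and Eef1b2 lead, from 2833 to 337 RPKM in DMSO, and Eif2c4 is lowest at 1.27.

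Changes were small and went both ways. In edgeR's quasi-likelihood test with p-values adjusted by Benjamini and Hochberg (BH) over the 13784 genes that entered it, at a limit of 0.05, 34 of the 63 genes passed, 15 higher and 19 lower in NU7441. Of all genes tested 30.7% passed, 14.1% higher and 16.6% lower. The largest rise was that of Eif3f at a log2 fold change of 0.31 and the largest fall that of Eef1e1 at -0.39. The median over the 63 was -0.03, against 0.005 over all genes tested. With upper-quartile scaling 56.5% of all calls were higher against 45.9% with the TMM scaling used here, and the counts for the group were then 16 higher and 18 lower.

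Most TOP members rose, and most factors outside the TOP list that passed fell. Of the 8 tested TOP members 6 were higher (Eef1a1, Eef2, Eef1b2, Eif3e, Eif3f, Eif4b) and 0 lower, with a median log2 fold change of 0.25. Of the 51 other factor genes, without the Argonautes, 8 were higher and 19 lower (median -0.06). Of all genes tested 14.1% were higher and 16.6% lower. The share of the 51 that rose was thus near that of all genes, and the share that fell was above it. The 6 TOP genes were higher, and passed, in each of the 14 alternative fits, which changed the scaling, filter, test or samples. The TOP list was set out with earlier results of these data known, so its direction is not independent evidence. NU7441 and DMSO samples did not overlap for 39 of the 63 genes, with NU7441 above for 16 and below for 23. Of all genes tested 42.8% did not overlap, with NU7441 above for 20.6% and below for 22.2%.

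**Figure D2:**
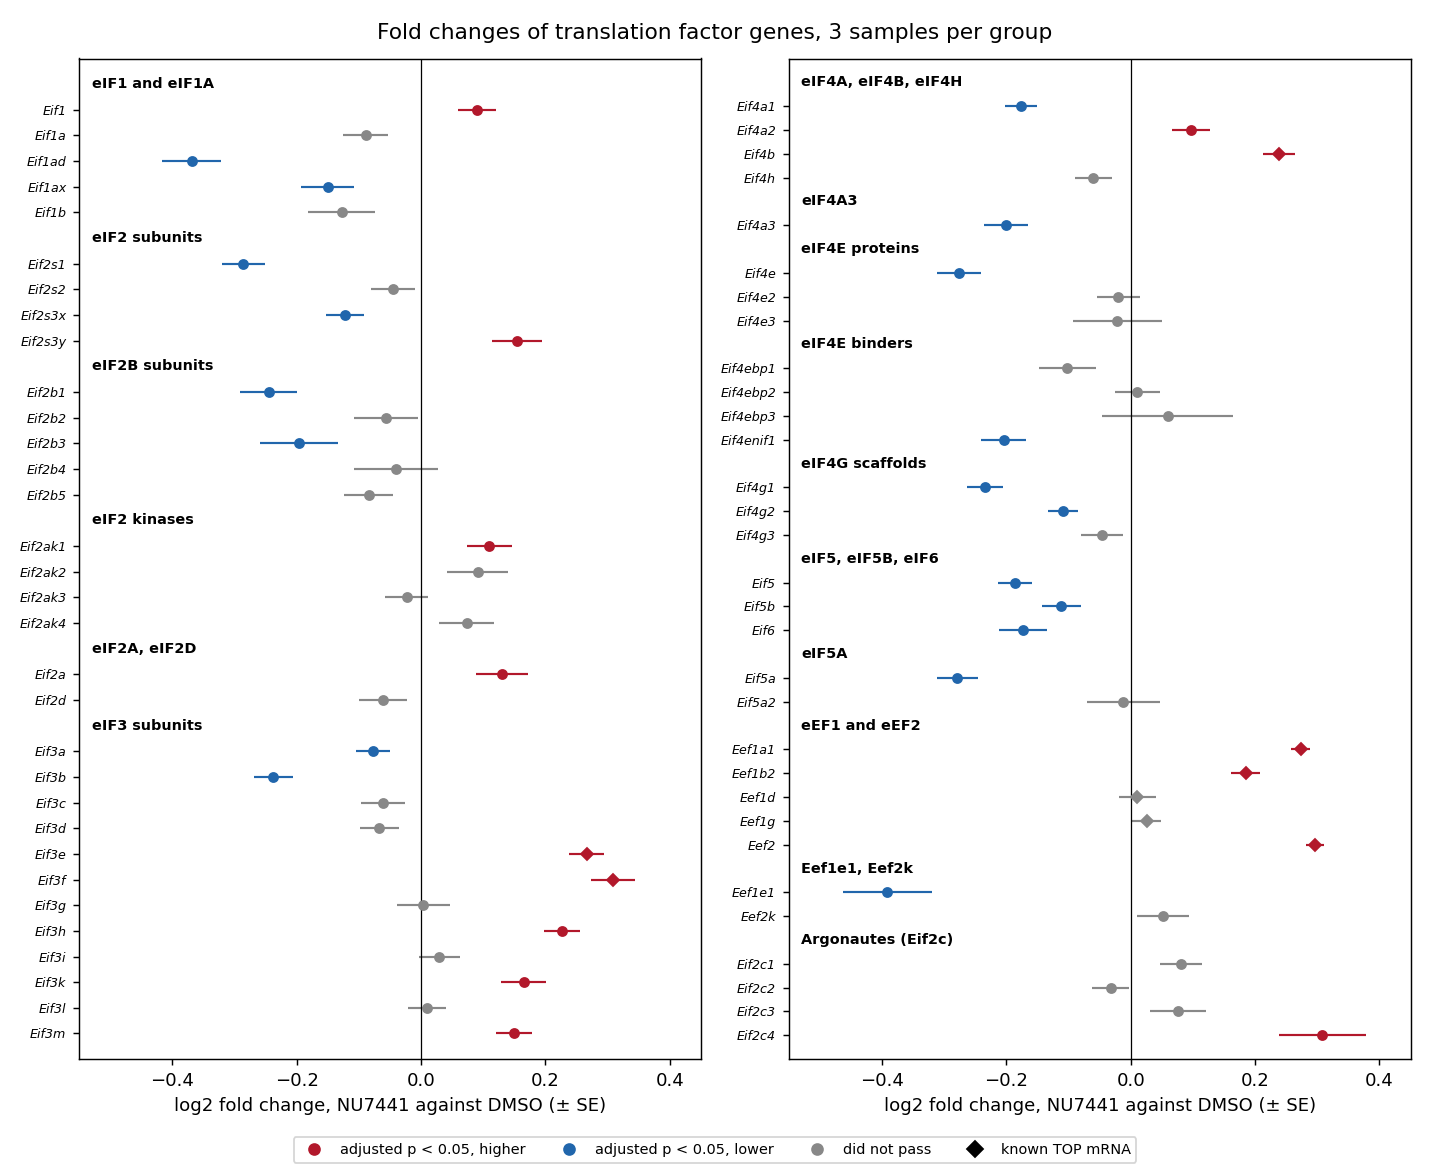
Log2 fold change of NU7441 against DMSO with its SE (edgeR, 3 samples per group) for the 63 tested rows, grouped by complex. Red passed as higher, blue as lower, grey did not pass, and diamonds are known TOP mRNAs. Of the 8 diamonds 6 are red, Eef1d and Eef1g are grey, and all passing points of eIF4E, eIF4G, eIF5, eIF5B, eIF6 and eIF5A are blue.

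Among the elongation factors, Eef1a1 (mm10 chromosome 9, 78478454 to 78481724) had 6563, 6639 and 6889 CPM in the DMSO samples and 8059, 8119 and 8108 CPM in the NU7441 samples. All 3 NU7441 samples lay above all DMSO samples, and the NU7441 values were closer to each other than the DMSO values. The log2 fold change was 0.27 ± 0.02 (SE, edgeR BH-adjusted p = 3.9e-09), a rise of 20.9%. Eef2, the translocase (chromosome 10, 81176631 to 81182509), had 3794, 3837 and 3905 CPM in DMSO and 4708, 4755 and 4701 CPM in NU7441. Its groups were also far apart, and the log2 fold change was 0.30 ± 0.01 (edgeR BH-adjusted p = 1.2e-09). Together these 2 genes took 1.06% ± 0.0224 (SD, n = 3) of all gene counts in DMSO and 1.27% ± 0.00946 in NU7441. All 66 genes took 2.2% ± 0.0287 and 2.39% ± 0.0159, while the 53 genes outside the TOP list and the Argonautes went the other way, from 0.753% ± 0.00467 to 0.704% ± 0.0073. The gene counts include the ribosomal RNA row Rn45s, which took 12.21% to 13.85% of them across samples, so these are not shares of mRNA alone. Eef1a1 has near-identical processed copies in the mouse genome that can take part of its reads, so its level is uncertain.

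The subunits of eEF1B, the exchange factor for eEF1A, did not all pass. Eef1b2, the catalytic beta subunit (chromosome 1, 63176831 to 63180486), had 854, 866 and 864 CPM in DMSO and 961, 993 and 984 CPM in NU7441, with no overlap and a log2 fold change of 0.19 ± 0.02 (edgeR BH-adjusted p = 2.5e-05). Eef1g, the gamma subunit, had 1320, 1368 and 1389 CPM in DMSO and 1359, 1399 and 1393 CPM in NU7441. Its groups overlapped, with a log2 fold change of 0.03 ± 0.02 (edgeR BH-adjusted p = 0.44). Eef1d, the delta subunit, had 208, 203 and 202 CPM in DMSO and 208, 200.3 and 209 CPM in NU7441, a log2 fold change of 0.01 ± 0.03 (edgeR BH-adjusted p = 0.83) that became -0.01 with library size as the only scaling. Both genes are on the TOP list and did not pass. The ratio of Eef1a1 to Eef1g in RPKM was 4.35, 4.25 and 4.34 in DMSO and 5.19, 5.08 and 5.09 in NU7441, and that of Eef1b2 to Eef1g was 0.513 ± 0.0101 and 0.573 ± 0.00142 (SD, n = 3). These ratios were chosen after the values were seen and were not tested. Eef2k, the kinase that switches eEF2 off, had a log2 fold change of 0.05 ± 0.04 (edgeR BH-adjusted p = 0.39). Eef1e1, named for eEF1 but a scaffold protein of the multi-tRNA synthetase complex, had 14.1, 13.1 and 14.3 CPM in DMSO and 9.81, 11.5 and 10.3 CPM in NU7441. Its fall, -0.39 ± 0.07 (edgeR BH-adjusted p = 0.00073), was the largest of the group on the log2 scale.

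**Figure D3:**
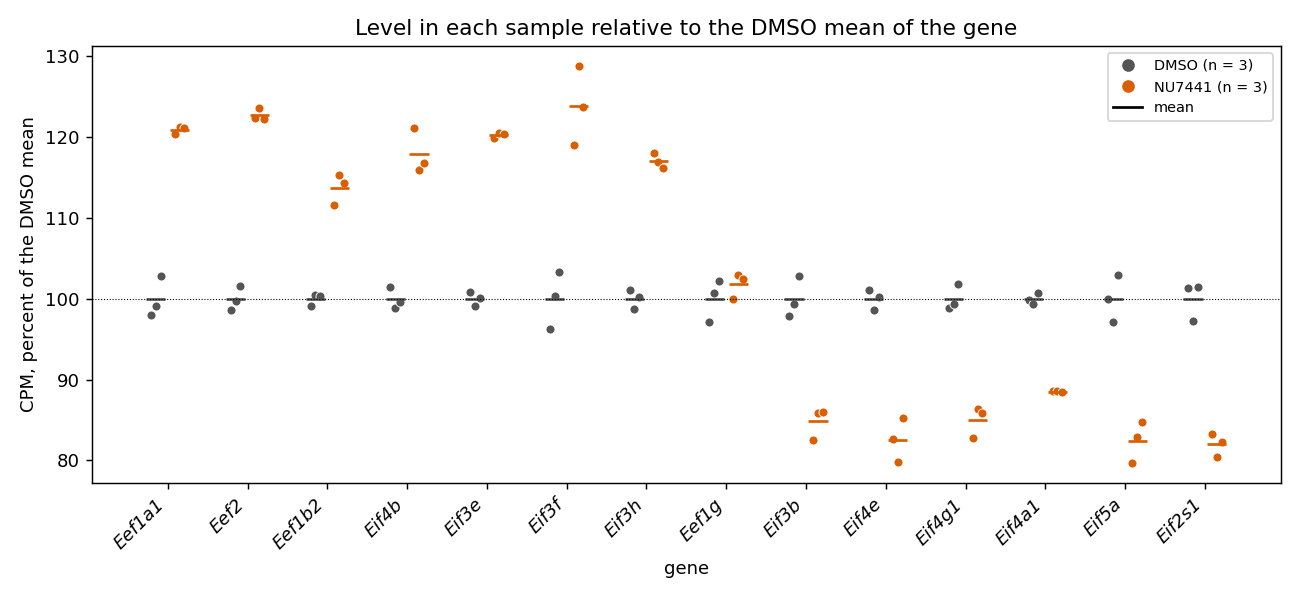
CPM of 14 genes in each sample as a percent of the gene's DMSO mean (grey DMSO, orange NU7441, 3 samples each, bars are group means). The NU7441 samples of Eef1a1, Eef2, Eef1b2, Eif4b, Eif3e, Eif3f and Eif3h lie above 100%, those of Eif3b, Eif4e, Eif4g1, Eif4a1, Eif5a and Eif2s1 below it, and Eef1g overlaps.

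Within eIF3, 5 of 12 tested subunits rose and 2 fell, beside 14.1% higher and 16.6% lower among all genes tested. Eif3f (chromosome 7, 108934415 to 108941942) had 153.6, 160.1 and 164.9 CPM in DMSO and 190.0, 205.6 and 197.4 CPM in NU7441, a log2 fold change of 0.31 ± 0.04 (edgeR BH-adjusted p = 1.1e-05). Eif3e (chromosome 15, 43250040 to 43282736) had 241.5, 237.5 and 239.9 CPM in DMSO and 287, 289 and 288.5 CPM in NU7441, a log2 fold change of 0.27 ± 0.03 (edgeR BH-adjusted p = 5e-06). Both are TOP mRNAs, and neither overlapped between groups. Eif3h, Eif3k and Eif3m, which the TOP list used here does not hold, rose too, by 0.23 ± 0.03, 0.17 ± 0.04 and 0.15 ± 0.03 on the log2 scale (edgeR BH-adjusted p = 2.7e-05, 0.0029 and 0.00095). Eif3h had 233, 228 and 231 CPM in DMSO and 272, 269.7 and 268 CPM in NU7441.

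The subunits that fell were Eif3b and Eif3a. Eif3b, which carries an RNA recognition motif and a WD40 propeller (chromosome 5, 140419305 to 140443358), had 210.6, 213.7 and 221.4 CPM in DMSO and 177.7, 184.8 and 185.2 CPM in NU7441. It did not overlap between groups and had a log2 fold change of -0.24 ± 0.03 (edgeR BH-adjusted p = 4.1e-05). Eif3a, the largest subunit, had 639, 646 and 631 CPM in DMSO and 596, 596 and 624.5 CPM in NU7441, with a log2 fold change of -0.08 ± 0.03 (edgeR BH-adjusted p = 0.046). That call did not hold with upper-quartile scaling (adjusted p = 0.17) and without DMSO sample 1 (0.082), DMSO sample 2 (0.13), DMSO sample 3 (0.056), NU7441 sample 1 (0.12) or NU7441 sample 2 (0.17). Eif3c (-0.06 ± 0.04), Eif3d (-0.07 ± 0.03), Eif3g (0.00 ± 0.04), Eif3i (0.03 ± 0.03) and Eif3l (0.01 ± 0.03) did not pass. The 5 subunits that rose are all among the 8 with a PCI or MPN domain (a, c, e, f, h, k, l, m), of which 5 rose and 1 fell, whereas of b, g and i 0 rose and 1 fell. That grouping was made after the values were seen. The ratio of Eif3e to Eif3b in RPKM went from 2.14 ± 0.0605 (SD, n = 3) to 3.04 ± 0.0631 and that of Eif3f to Eif3b from 1.46 ± 0.021 to 2.13 ± 0.0517. These are shifts in mRNA of parts of 1 complex, chosen after the values were seen and given without a test.

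For the 3 parts of eIF4F, the genes Eif4e, Eif4g1 and Eif4a1 fell, while the relatives Eif4a2 and Eif4g3 (below) did not pass as lower. Eif4e, the cap-binding subunit (chromosome 3, 138526191 to 138557599), had 85.8, 83.6 and 85.0 CPM in DMSO and 70.1, 67.7 and 72.3 CPM in NU7441. The groups did not overlap, and the log2 fold change was -0.28 ± 0.03 (edgeR BH-adjusted p = 2.7e-05). Eif4g1, the main scaffold (chromosome 16, 20672749 to 20692883), had 519.9, 522.6 and 535.3 CPM in DMSO and 435.5, 454.4 and 451.5 CPM in NU7441, a log2 fold change of -0.23 ± 0.03 (edgeR BH-adjusted p = 2e-05). Eif4a1, the main helicase (chromosome 11, 69666936 to 69672423), had 571, 568 and 576 CPM in DMSO and 506.1, 506.4 and 505.6 CPM in NU7441, a log2 fold change of -0.18 ± 0.03 (edgeR BH-adjusted p = 9.7e-05). For all 3, every NU7441 sample lay below every DMSO sample, and the calls stood in all 14 alternative fits.

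The cofactor of the helicase went the other way. Eif4b, a TOP mRNA whose product stimulates eIF4A (chromosome 15, 102073773 to 102097173), had 758, 739 and 744.5 CPM in DMSO and 904.5, 866 and 873 CPM in NU7441, a log2 fold change of 0.24 ± 0.03 (edgeR BH-adjusted p = 5.1e-06). The ratio of Eif4b to Eif4a1 in RPKM was thus 0.647, 0.635 and 0.631 in DMSO and 0.872, 0.834 and 0.842 in NU7441, a pair chosen after the values were seen. Eif4h, a relative of Eif4b that is not on the TOP list, had a log2 fold change of -0.06 ± 0.03 (edgeR BH-adjusted p = 0.14). Eif4g2, an eIF4G relative that lacks the cap-binding protein's site, fell by 0.11 on the log2 scale (SE 0.02, edgeR BH-adjusted p = 0.0033). Eif4g3 had a log2 fold change of -0.05 ± 0.03, and the cap-binding relatives Eif4e2 and Eif4e3 both had -0.02, with SEs of 0.03 and 0.07 (edgeR BH-adjusted p = 0.33, 0.71 and 0.86).

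The eIF4E-binding proteins, which block eIF4E until mTORC1 phosphorylates them, did not pass. Eif4ebp1 had 42.9, 39.0 and 42.8 CPM in DMSO and 39.1, 36.7 and 40.6 CPM in NU7441, with overlapping groups and a log2 fold change of -0.10 ± 0.05 (edgeR BH-adjusted p = 0.11, and 0.034 without DMSO sample 2). Eif4ebp2 stood at 0.01 ± 0.04 and Eif4ebp3, near 5 CPM, at 0.06 ± 0.11 (edgeR BH-adjusted p = 0.86 and 0.72). Since Eif4e fell, the ratio of Eif4ebp2 to Eif4e in RPKM was 0.784, 0.78 and 0.78 in DMSO and 0.922, 0.981 and 0.958 in NU7441. The ratio of Eif4ebp1 to Eif4e was 1.44 ± 0.0598 and 1.63 ± 0.0309 (SD, n = 3), again with no overlap. Both ratios were chosen after the values were seen and concern mRNA only. Eif4enif1, which carries eIF4E into the nucleus, fell from 75.4, 73.2 and 73.0 CPM in DMSO to 61.7, 64.7 and 65.9 CPM in NU7441 (log2 fold change -0.20 ± 0.04, edgeR BH-adjusted p = 0.00054).

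Of the eIF2 subunits, Eif2s1, the alpha subunit that stress kinases phosphorylate (chromosome 12, 78862072 to 78887010), had 68.7, 66.0 and 68.8 CPM in DMSO and 56.5, 54.6 and 55.9 CPM in NU7441. It fell by 0.29 on the log2 scale (SE 0.03, edgeR BH-adjusted p = 1.9e-05), with no overlap between groups. Eif2s2, the beta subunit, had overlapping groups and a log2 fold change of -0.05 ± 0.04 (edgeR BH-adjusted p = 0.38). The gamma subunit has an X-linked and a Y-linked gene, and these went in opposite directions. Eif2s3x had 197, 201 and 208 CPM in DMSO and 183, 187 and 187 CPM in NU7441, a log2 fold change of -0.12 ± 0.03 (edgeR BH-adjusted p = 0.0066). Eif2s3y had 76.0, 73.9 and 69.5 CPM in DMSO and 84.4, 80.1 and 79.6 CPM in NU7441, a log2 fold change of 0.15 ± 0.04 (edgeR BH-adjusted p = 0.0083). Without DMSO sample 3 both calls were lost, at adjusted p = 0.051 for Eif2s3x and 0.052 for Eif2s3y. The 2 genes are near-identical copies, so reads may have been split between them.

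Of the 5 eIF2B subunits 2 fell, Eif2b1 (-0.25 ± 0.05, edgeR BH-adjusted p = 0.00089) and Eif2b3 (-0.20 ± 0.06, edgeR BH-adjusted p = 0.027), and 0 rose. Eif2b1, the alpha subunit that senses phosphorylated eIF2, had 28.6, 30.6 and 29.1 CPM in DMSO and 23.3, 25.5 and 25.6 CPM in NU7441. The Eif2b3 call did not hold without DMSO sample 2 (adjusted p = 0.11), DMSO sample 3 (0.071), NU7441 sample 2 (0.12) or NU7441 sample 3 (0.076). Eif2b2 (-0.06 ± 0.05), Eif2b4 (-0.04 ± 0.07) and Eif2b5 (-0.08 ± 0.04) did not pass, though Eif2b5 did without NU7441 sample 2 (adjusted p = 0.02). Of the kinases, which answer haem shortage, double-stranded RNA, unfolded protein and amino acid shortage, 1 of 4 passed. For both sets, the share passing among all genes tested was 30.7%. Eif2ak1, the haem-regulated kinase, rose by 0.11 ± 0.04 (edgeR BH-adjusted p = 0.032), which did not hold with library size only (adjusted p = 0.07) and without DMSO sample 1 (0.065), DMSO sample 3 (0.063), NU7441 sample 2 (0.078) or NU7441 sample 3 (0.10).

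Eif2ak2, the kinase PKR, which is itself induced by interferon, had 85.0, 79.0 and 77.7 CPM in DMSO and 92.5, 80.6 and 84.4 CPM in NU7441. Its groups overlapped and its log2 fold change of 0.09 ± 0.05 did not pass (edgeR BH-adjusted p = 0.18, and 0.047 without NU7441 sample 2). Eif2ak4, the amino acid sensor GCN2, had 0.07 ± 0.04 (edgeR BH-adjusted p = 0.24, and 0.038 without NU7441 sample 1), and Eif2ak3, the endoplasmic reticulum kinase PERK, -0.02 ± 0.03 (edgeR BH-adjusted p = 0.67). Eif2a, which can bring the initiator tRNA without eIF2 and is not an eIF2 subunit, rose by 0.13 ± 0.04 (edgeR BH-adjusted p = 0.028). That call did not hold with library size only (adjusted p = 0.08) and without DMSO sample 2 (0.084), DMSO sample 3 (0.11) or NU7441 sample 1 (0.11). Eif2d, a related factor that works in ribosome recycling too, had -0.06 ± 0.04 (edgeR BH-adjusted p = 0.26).

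Factors of start codon choice and subunit joining mostly fell. Eif5, which makes eIF2 hydrolyse its GTP, had 169, 168 and 165 CPM in DMSO and 145, 149 and 147.5 CPM in NU7441 (log2 fold change -0.19 ± 0.03, edgeR BH-adjusted p = 0.00011). Eif6, which keeps the large subunit from joining too early, had 59.1, 59.8 and 58.8 CPM in DMSO and 50.7, 51.5 and 55.3 CPM in NU7441 (-0.17 ± 0.04, edgeR BH-adjusted p = 0.0031). Neither overlapped between groups. Eif5b, the joining GTPase, fell by 0.11 ± 0.03 (edgeR BH-adjusted p = 0.014), which did not hold without DMSO sample 1 (adjusted p = 0.062), DMSO sample 2 (0.06), NU7441 sample 1 (0.0502) or NU7441 sample 2 (0.053). Eif1ax, which holds the scanning subunit open, fell by 0.15 ± 0.04 (edgeR BH-adjusted p = 0.015), lost without DMSO sample 1 (0.093) or NU7441 sample 2 (0.06). Its close copy Eif1a had -0.09 ± 0.04 (edgeR BH-adjusted p = 0.077, and 0.039 with library size only), and reads of the pair may be split between them.

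Eif1, the guardian of start codon accuracy, rose by 0.09 ± 0.03 (edgeR BH-adjusted p = 0.036). That call did not hold with library size only (adjusted p = 0.13) and without DMSO sample 1 (0.071), DMSO sample 2 (0.077), DMSO sample 3 (0.12), NU7441 sample 1 (0.14) or NU7441 sample 3 (0.078). Its paralog Eif1b had -0.13 ± 0.05 (edgeR BH-adjusted p = 0.09, and 0.0499 with library size only). Eif1ad, which has an eIF1A-like domain and acts in small subunit maturation, fell from 29.2, 32.2 and 32.3 CPM in DMSO to 23.3, 24.7 and 24.6 CPM in NU7441 (-0.37 ± 0.05, edgeR BH-adjusted p = 3e-05). It was the second largest fall of the group.

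Eif5a, the hypusine-bearing factor that helps ribosomes past difficult peptide bonds (chromosome 11, 69916712 to 69921958), had 462, 449 and 476 CPM in DMSO and 369, 383 and 392 CPM in NU7441. It fell by 0.28 on the log2 scale (SE 0.03, edgeR BH-adjusted p = 1.4e-05), with no overlap between groups. Its paralog Eif5a2, at 1.99 ± 0.0207 RPKM against 173.6 ± 6.35 for Eif5a in DMSO, had a log2 fold change of -0.01 ± 0.06 (edgeR BH-adjusted p = 0.91). Eif4a3, the eIF4A relative that works in the exon junction complex and not in initiation, fell from 45.3, 43.3 and 44.5 CPM in DMSO to 38.0, 39.3 and 38.6 CPM in NU7441 (-0.20 ± 0.03, edgeR BH-adjusted p = 0.00047). Of the 4 Argonaute rows 1 passed, Eif2c4 (Ago4), which rose from 10.7, 11.5 and 10.6 CPM in DMSO to 12.4, 14.4 and 13.7 CPM in NU7441 (0.31 ± 0.07, edgeR BH-adjusted p = 0.0037).

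Ratios between paralogs were compared within samples, where scaling cancels, for 9 pairs set out from the gene names. Eif4a1 exceeded Eif4a2 in RPKM 3.30-, 3.12- and 3.25-fold in DMSO and 2.70-, 2.63- and 2.66-fold in NU7441. Eif4a2 itself rose by 0.10 ± 0.03 on the log2 scale (edgeR BH-adjusted p = 0.027), which did not hold with library size only (adjusted p = 0.079) and without DMSO sample 1 (0.099), DMSO sample 3 (0.081), NU7441 sample 2 (0.097) or NU7441 sample 3 (0.083). The ratio of Eif4e to Eif4e2 went from 1.73 ± 0.0299 (SD, n = 3) to 1.45 ± 0.0236 and that of Eif4g1 to Eif4g3 from 5.61 ± 0.1 to 4.92 ± 0.0341. In each of these pairs the ratio of the more abundant form to the other was lower in NU7441. It was lower too for Eif5a to Eif5a2 (87.2 ± 4.03 to 72.5 ± 2.7), Eif4g1 to Eif4g2 (1.04 ± 0.0228 to 0.956 ± 0.0267) and Eif2s3x to Eif2s3y (1.37 ± 0.0999 to 1.13 ± 0.0509), while Eif1 to Eif1b went from 12.4 ± 0.25 to 14.5 ± 0.861. For these 7 pairs the groups did not overlap, at p = 0.1 each in a two-sided exact permutation test, the smallest that 3 against 3 samples allow, and adjusted p = 0.13 over the 9 pairs, so none passes. The groups overlapped for Eif4ebp1 to Eif4ebp2 and for Eif1a to Eif1ax (exact permutation test, p = 0.2 and 0.5).

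**Figure D4:**
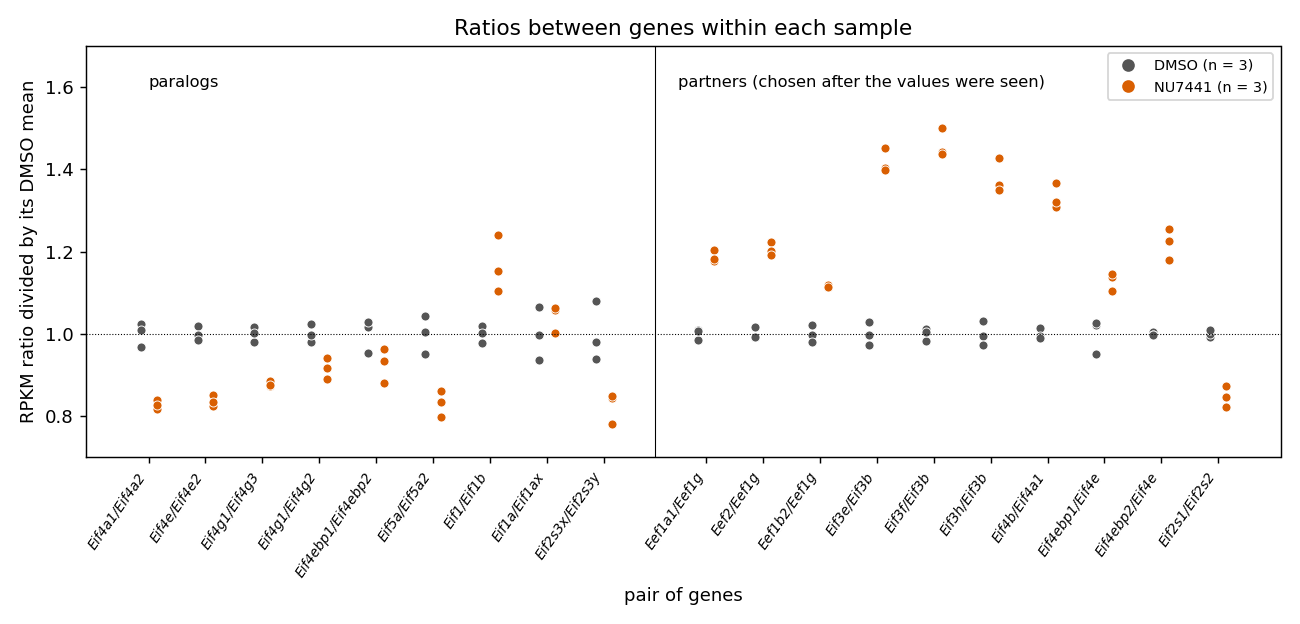
Ratio of RPKM values of 2 genes within each sample, divided by the DMSO mean of that ratio (grey DMSO, orange NU7441, 3 samples each), for 9 paralog pairs and for 10 partner pairs that were chosen after the values were seen. Of the paralog pairs, 6 lie lower in NU7441 without overlap and Eif1 to Eif1b lies higher.

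Other TOP mRNAs, from a list outside the group, moved in the same direction for the most part. That list too was chosen with earlier results of these data known, so its direction is not independent evidence. Of 12 tested 8 were higher and 2 lower, with a median log2 fold change of 0.12. Among all genes tested 14.1% were higher and 16.6% lower. Tpt1, which encodes the tumour protein TCTP, rose by 0.24 ± 0.02 (edgeR BH-adjusted p = 2e-07), Vim by 0.33 ± 0.03 and Gnb2l1, the ribosomal scaffold RACK1, by 0.21 ± 0.02 (edgeR BH-adjusted p = 3.8e-06 and 3.3e-06). The exceptions were Slc25a5, a mitochondrial ADP/ATP carrier, at -0.35 ± 0.03, and Nap1l1, a histone chaperone, at -0.08 ± 0.03 (edgeR BH-adjusted p = 4.5e-07 and 0.042). Of 80 tested cytosolic ribosomal protein genes, 67 rose and 4 fell, the median being 0.17, set here beside the 0.25 of the TOP factors without a test. Many ribosomal protein genes have processed copies that can take part of their reads.

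The factors that end translation and recycle ribosomes fell where they passed. Abce1, which splits ribosomes, fell from 132 to 104 CPM in the group means (-0.35 ± 0.03, edgeR BH-adjusted p = 1.1e-06), Gspt1, the release factor eRF3, by 0.29 ± 0.03 (edgeR BH-adjusted p = 1.1e-05) and Etf1, the release factor eRF1, by 0.21 ± 0.04 (edgeR BH-adjusted p = 0.00075). They were the 3 of 6 tested genes of that list that passed, all lower. For this and the next 3 lists, the share among all genes tested was 30.7% passing, 14.1% higher and 16.6% lower. Of the 7 genes that modify eEF2 and eIF5A 2 fell and 0 rose, Dph2 of the diphthamide pathway (-0.47 ± 0.10) and Dohh, the second enzyme of hypusine synthesis (-0.15 ± 0.05; edgeR BH-adjusted p = 0.0026 and 0.021). Of 9 mitochondrial translation factors 2 fell, Tsfm (-0.41 ± 0.07) and Gfm1 (-0.20 ± 0.04), and 0 rose (edgeR BH-adjusted p = 0.00059 and 0.0013). Of 5 selenocysteine factors Eefsec, the dedicated elongation factor, fell (-0.24 ± 0.06) and Secisbp2 rose (0.18 ± 0.06; edgeR BH-adjusted p = 0.0056 and 0.024).

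Regulators of the factors went both ways. Of 16 regulators of eIF4F 6 were higher and 2 lower, beside 14.1% higher and 16.6% lower among all genes tested. Paip2 (0.22 ± 0.03), which holds the poly(A)-binding protein off the mRNA, Pdcd4 (0.17 ± 0.03), an inhibitor of eIF4A, and Mknk1 (0.19 ± 0.04), a kinase of eIF4E, rose (edgeR BH-adjusted p = 0.00019, 0.0015 and 0.0013). Larp1, which binds the start of TOP mRNAs, fell (-0.18 ± 0.03, edgeR BH-adjusted p = 0.0004). Mtor and Rptor stood at -0.03 ± 0.05 and 0.00 ± 0.04 (edgeR BH-adjusted p = 0.69 and 0.99). Of 10 regulators of eIF2 1 rose, Ppp1r15a, the stress-induced arm of the eIF2 phosphatase (0.23 ± 0.06), and 3 fell, among them Ppp1r15b, its constitutive arm (-0.18 ± 0.03; edgeR BH-adjusted p = 0.013 and 0.00044).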

How the data were processed

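The authors deposited, per the file headers, 1 table of 23358 gene rows with their length and, for each of 6 samples, the count and the RPKM. Every deposited count is even (0 odd values), so a read pair appears to be counted as 2. The deposited RPKM divides each count by the coding length in the file and by 1 total per sample that exceeds the sum of the gene counts. It was used only for levels between genes and for ratios. Per the submitters' processing notes, the tools were TopHat2 2.0.6, HTSeq and bcl2fastq, and the build mm10. Because counting settings and strand are not given in the sources used here, reads in stretches shared by overlapping genes cannot be assigned. Examples are Eif4a2 with Rfc4 (185 shared bases) and Eif2a with Serp1 (64). Longer ones are Eif5b with Rev1 (2794) and Eif2ak1 with Ankrd61 (4325). No column of sample values was left unmapped (0).

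Counts as deposited were filtered with filterByExpr (at least 10 counts, 15 in total). After TMM scaling, glmQLFTest of edgeR 4.0.16 (quasi-likelihood, R 4.3.3) was run two-sided on group alone, Benjamini-Hochberg adjusted over 13784 genes, threshold 0.05. The SE is the log2 fold change divided by the square root of F. CPM uses the scaled library sizes, summed levels and shares the raw totals. The biological coefficient of variation was 5.6%. No pair of samples within a group was as alike as sampling noise alone would make it, and each counts as 1 replicate. The procedure was tested on simulated counts. Alternatives were DESeq2 1.42.0, 3 other scalings, no filter, halved counts, a robust fit, the replicate number as a term, and leaving out each sample.

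The members, the TOP list and the other lists were chosen with earlier results of these data known. Any member may be named. Of the other lists up to 4 genes with the lowest adjusted p are named, while Mtor, Rptor, Nap1l1 and the genes at 0 counts were named after their values were seen. Ratios used SciPy 1.17.1, and the planned pairs with Eef1a2 or Eif3j were not run because those rows did not pass the filter.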

Additional observations from a re-analysis of the deposited data

How the results depend on the processing

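Of the 34 genes of the group that passed, 24 kept their call and direction in all 14 alternatives, 10 higher and 14 lower. The other 10 lost the call in at least 1, and 9 genes that had not passed did so in at least 1. With each sample left out in turn, the number called among all genes lay between 3466 and 3910 against 4231. The numbers of members higher and lower then lay between 10 and 14 and between 16 and 18. With DESeq2 both were unchanged at 15 and 19, and with library size only they were 11 and 21.

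The directions that reversed all belonged to genes that had not passed. With upper-quartile scaling the log2 fold change was 0.0024 for Eif2ak3, 0.0059 for Eif4e2, 0.0038 for Eif4e3 and 0.014 for Eif5a2. With library size only it was -0.0086 for Eef1d, -0.0157 for Eif3g, -0.0095 for Eif3l and -0.0089 for Eif4ebp2. With each sample left out in turn it ranged from -0.0021 to 0.0314 for Eef1d, from -0.0994 to 0.0444 for Eif2b4, from -0.0274 to 0.0556 for Eif3g and from -0.0152 to 0.0306 for Eif3l. It ranged from -0.1055 to 0.0522 for Eif4e3, from -0.0161 to 0.0328 for Eif4ebp2 and from -0.029 to 0.0107 for Eif5a2. The cause was not tested.

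The labels do not say that a shared number pairs samples, and samples with the same number correlated in their deviations from the group means at 0.13, 0.09 and 0.05. Each sample correlated best with its own number, a hint from the data and not the design. With the replicate block 5120 genes passed, and 17 members were higher and 23 lower, among them all 34 called without it. The 6 added calls were Eif2c1 (adjusted p = 0.045) and Eif2ak2 (0.025) higher and Eif3c (0.047), Eif4h (0.046), Eif4ebp1 (0.020) and Eif1a (0.022) lower. Eef1a2 and Eif4e1b had too few counts to be tested at this depth.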
